A study of Mus musculus with 3 samples.

Results

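The 10 genes described here encode adhesion molecules of the cell surface. They are the integrin subunits Itga5, Itga6, Itgav and Itgb1, the tetraspanins Cd9, Cd63 and Cd81, the cadherin Cdh1, Epcam, and the immunoglobulin family member Pecam1. They were chosen by symbol, all 10 were found among the 29267 mouse gene identifiers of the count tables, and all 10 passed the filter that left 17119 genes for testing. Each was measured as counts of unique molecular identifiers (UMIs, tags that mark single cDNA molecules) in wells holding single mouse embryonic stem cells. Inhibited cells are those the labels list as Mll1 inhibition, without an agent, dose or time. Deleted cells are Mll1-/-, without the deleted exons being named. Control cells are Mll1fl/fl, with loxP-flanked alleles of the gene. The given genotype of all 3 groups is Mll1fl/fl with Cre-ER TM, a tamoxifen-inducible Cre recombinase, on the C57BL/6J strain, and the cells were derived from blastocysts. Mll1, now named Kmt2a, encodes a methyltransferase of histone H3 lysine 4. Each of 3 plates (105102, 105106 and 105107, here plates 1, 2 and 3) carried all 3 groups, and no source says that the plates hold separate cultures or lines. The p-values below therefore reflect plate-to-plate spread, possibly technical only.

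Integrins are heterodimers of an alpha and a beta chain that tie the cytoskeleton to the extracellular matrix. The beta 1 chain encoded by Itgb1 pairs with the alpha 5, alpha 6 and alpha V chains, whose main ligands are fibronectin, laminins and RGD-bearing proteins such as vitronectin. Tetraspanins cross the membrane several times and gather integrins and other receptors into membrane domains; CD63 is best known from late endosomes and exosomes, and CD9 and CD81 from the plasma membrane. E-cadherin, the product of Cdh1, joins neighbouring embryonic stem cells through calcium-dependent contacts. EpCAM is an epithelial adhesion molecule present on pluripotent cells, and PECAM1 is a homophilic adhesion molecule of endothelium, platelets and the early inner cell mass.

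After filtering, 1590 inhibited, 1310 deleted and 1513 control wells remained, with medians of 32890, 34721 and 39644 UMIs per well. Summing the wells of each group on each plate gave 9 libraries of 25914860 to 43773924 UMIs. The median mitochondrial share of UMIs was 3.24 to 3.48% in inhibited, 3.81 to 4.16% in deleted and 3.06 to 3.18% in control libraries. Kmt2a had 40.6, 43.4 and 46.7 CPM (counts scaled to library size, as counts per 1e6) in inhibited libraries of plates 1 to 3, 62.1, 49.9 and 39.2 CPM in deleted libraries, against 50.2, 50.2 and 54.7 CPM in control cells. Without the deleted exons or the counted transcript end, this level does not check the genotype. All 10 pluripotency markers examined were above 0 in every library, and their summed level was 4554 to 5392 CPM in inhibited, 5127 to 6573 CPM in deleted and 6204 to 6369 CPM in control libraries. Most of that sum was Dppa5a, at 3823 to 4687 CPM in inhibited, 4502 to 5847 CPM in deleted and 5477 to 5578 CPM in control libraries, whereas Pou5f1, which encodes OCT4, had 56.4 to 58.3 CPM in inhibited, 48.4 to 61.1 CPM in deleted and 47.8 to 54.3 CPM in control libraries. Among 3260 distinct barcodes of kept wells, 1040 occurred on at least 2 plates. Each barcode stood for 1 chip position, and none occurred in more than 1 well of a plate.

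The 10 genes covered a wide range of levels, and the tetraspanins led. Averaged over the 9 libraries and divided by the length of the gene's merged exons, the level was 341 CPM per kb for Cd81, 241 for Cd63 and 207 for Cd9. Epcam had 119.9 CPM per kb, Itgb1 94.9 and Cdh1 35.7. The alpha chains and Pecam1 were far lower, with 4.35 CPM per kb for Itga6, 1.88 for Itgav, 1.00 for Itga5 and 0.788 for Pecam1. The sources used here do not give the transcript end that was counted, so this order rests on the assumption that counts scale with length. Total UMIs showed the same division, with 315261 UMIs of Cd81 in 4330 of 4413 kept wells against 1622 UMIs of Itga5 in 587 wells and 1582 UMIs of Pecam1 in 285 wells. Itga5 and Pecam1 did not pass the mean level of 10 CPM used below for lists of well-measured genes. The 15 wells without cells, with a median of 165 UMIs, held 3 UMIs of Itgb1, 1 each of Cd9, Cd63 and Cd81, and none of the other members.

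**Figure D1:**
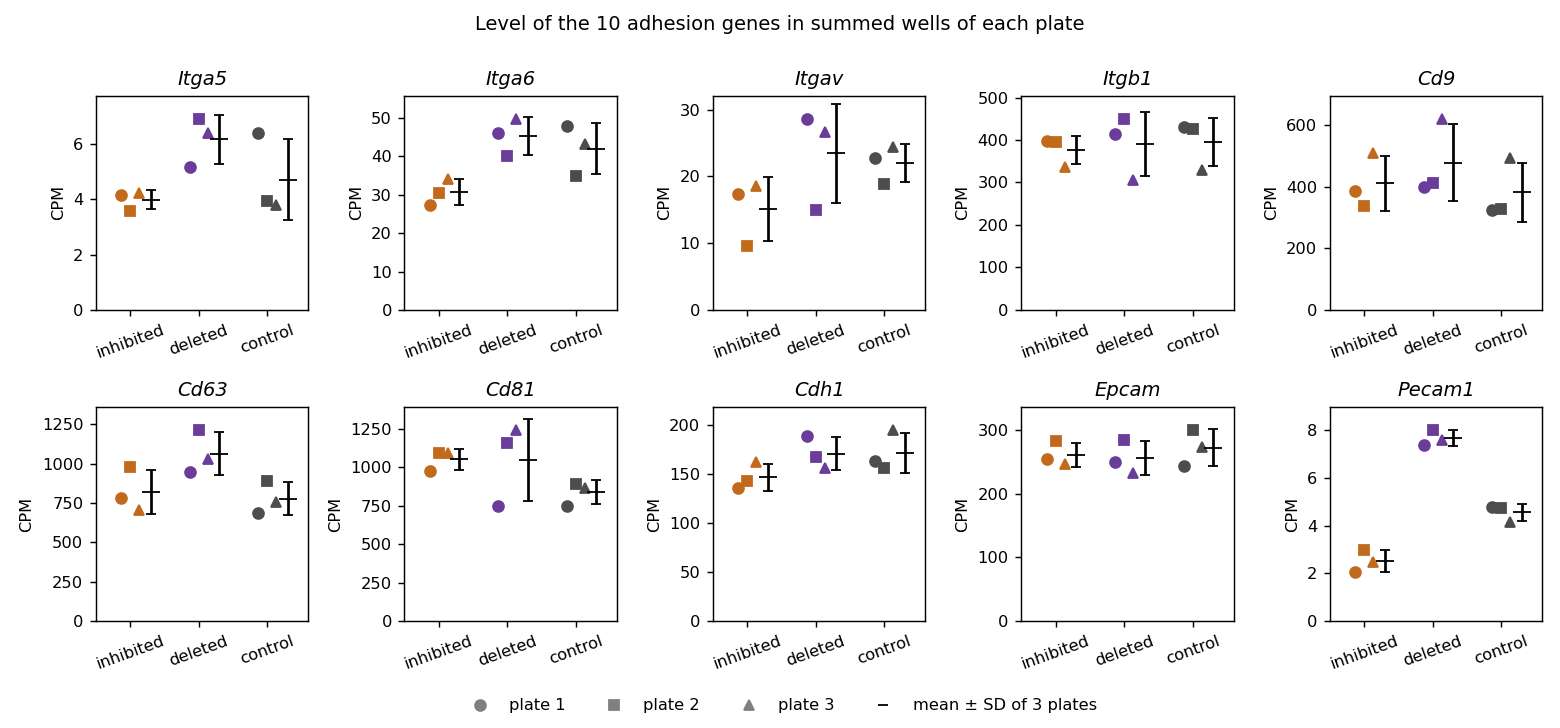
Level in CPM (vertical axes, starting at 0) of each adhesion gene in the summed wells of inhibited, deleted and control cells. Symbols are plates 1 to 3 and bars are the mean ± SD of the 3 plates; for Pecam1 the 3 groups are separate, with 2.07 to 2.99 CPM in inhibited, 7.37 to 8.002 CPM in deleted and 4.13 to 4.79 CPM in control libraries, while for Itgb1 and Epcam the groups lie over each other.

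Differences between groups were tested with edgeR's quasi-likelihood test on the 9 libraries, with the plate as a block and Benjamini-Hochberg adjustment over all 17119 genes. Of the 10 adhesion genes, 1 passed the threshold of an adjusted p of 0.05: Cd63 fell in inhibited relative to deleted cells. In that comparison 0.31% of all genes passed, 0.216% lower and 0.0935% higher. No adhesion gene passed for inhibited against control cells, where 0.00584% of all genes did, or for deleted against control cells, where 0.035% did. At an unadjusted p under 0.05, 5 adhesion genes differed for inhibited against deleted cells (13.7% of all genes), 4 for inhibited against control cells (9% of all genes) and 4 for deleted against control cells (10.3% of all genes). The median log2 difference of the 10 genes was -0.30 for inhibited against deleted cells, -0.14 for inhibited against control cells and 0.21 for deleted against control cells, each beside a median of 0.00 over all genes to 2 decimals. Counted by plate, 6 adhesion genes were lower in inhibited than in deleted libraries on all 3 plates and 0 higher, beside 15.4% and 24.1% of the 7577 genes averaging 10 CPM or more. Against control, inhibited libraries were lower for 4 and higher for 2 (15% and 24.1% of those genes), and deleted libraries were lower for 0 and higher for 3 (18.5% each way). Pecam1 is counted in each comparison and Itga5 for inhibited against deleted libraries, though both average under 10 CPM. They lie outside the 7577 genes. These 3 comparisons share libraries in pairs, so their values are not independent of each other. In sums over wells, fewer cells expressing a gene and less RNA per cell cannot be told apart.

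**Figure D2:**
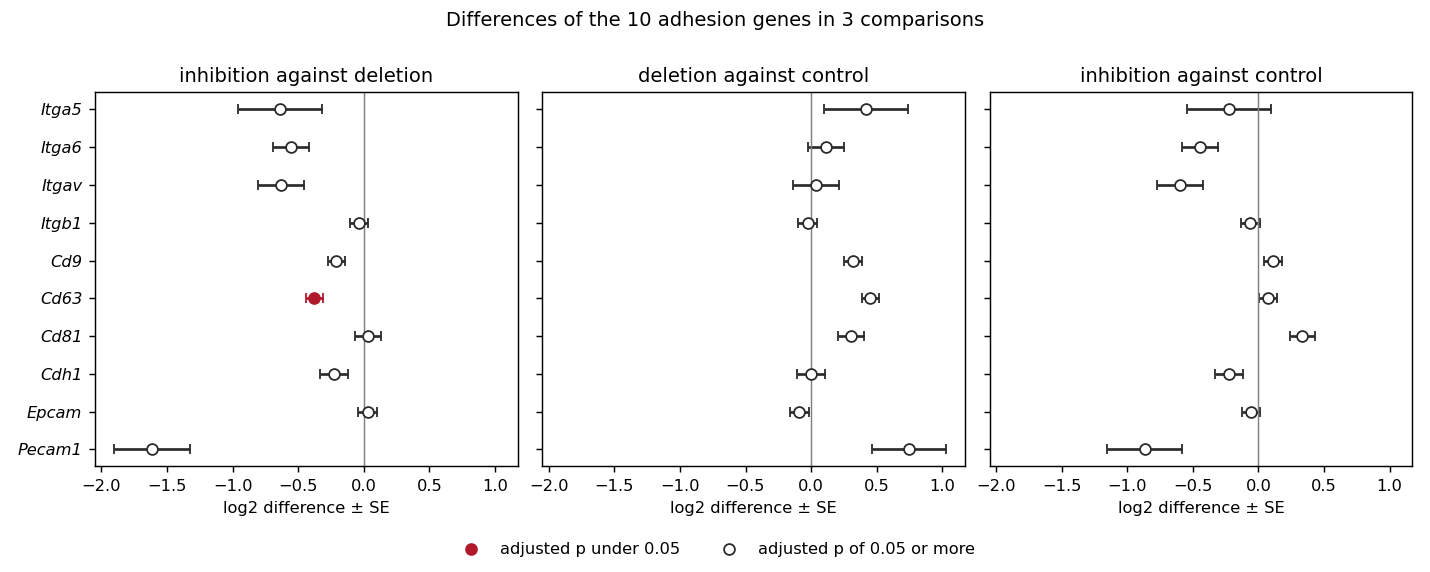
Log2 difference with its standard error (horizontal axes) of the 10 adhesion genes for inhibited against deleted, deleted against control and inhibited against control cells. The filled point, Cd63 at -0.38 ± 0.07 for inhibited against deleted cells, is the 1 value with an adjusted p under 0.05; Pecam1 lies farthest from 0 in all 3 panels.

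All 4 integrin genes had their lowest group mean in inhibited cells, by little for the shared beta chain and by more for the alpha chains, and no difference passed the threshold. Itgb1 (ENSMUSG00000025809; GRCm38 chromosome 8, 128685654 to 128733200, plus strand) had 397, 395 and 337 CPM in the inhibited libraries of plates 1 to 3, 413, 450.5 and 306 CPM in the deleted ones, against 430.2, 425 and 330 CPM in control cells. Plate 3 was the lowest in every group, and the groups overlapped. Its log2 difference was -0.04 ± 0.07 (SE) for inhibited against deleted cells, -0.06 ± 0.07 for inhibited against control cells and -0.03 ± 0.07 for deleted against control cells. None of these exceeded its standard error.

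Itga6 (ENSMUSG00000027111; chromosome 2, 71745616 to 71858416, plus strand), which encodes a laminin receptor chain, had 27.4, 30.4 and 34.2 CPM in inhibited cells, 46.0, 40.0 and 49.8 CPM in deleted cells, against 47.8, 34.7 and 43.2 CPM in control cells. In CPM, every inhibited library lay below every deleted and every control library. The log2 difference was -0.56 ± 0.14 for inhibited against deleted cells (adjusted p = 0.128) and -0.44 ± 0.14 for inhibited against control cells (adjusted p = 0.378). Neither passed the threshold over all genes. Deleted and control libraries overlapped, with a log2 difference of 0.11 ± 0.14.

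Itgav (ENSMUSG00000027087; chromosome 2, 83724397 to 83806916, plus strand), the alpha V chain, had 17.3, 9.55 and 18.5 CPM in inhibited cells, 28.6, 15.0 and 26.7 CPM in deleted cells, against 22.8, 18.8 and 24.5 CPM in control cells. Inhibited cells were below the other groups on each plate, and plate 2 was the lowest in every group. Its plate means spanned a ratio of 1.61, the widest of the 10 genes. The log2 difference was -0.63 ± 0.18 for inhibited against deleted cells (adjusted p = 0.161) and -0.60 ± 0.18 for inhibited against control cells (adjusted p = 0.365). For deleted against control cells it was 0.04 ± 0.17.

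Itga5 (ENSMUSG00000000555; chromosome 15, 103344286 to 103366763, minus strand), the alpha chain of the fibronectin receptor, was the sparsest integrin, with 4.15, 3.58 and 4.23 CPM in inhibited cells, 5.18, 6.92 and 6.38 CPM in deleted cells, against 6.39, 3.92 and 3.795 CPM in control cells. Inhibited and deleted libraries did not overlap, yet the log2 difference of -0.64 ± 0.32 had an adjusted p of 0.412. In 1 deleted library a single well held 48.2% of the gene's UMIs. Deleted and control libraries overlapped (log2 difference 0.42 ± 0.32, adjusted p = 0.731), as did inhibited and control libraries (-0.22 ± 0.32, adjusted p = 0.907).

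Among the 10 members, the 3 tetraspanins had the highest levels and the highest correlations with each other across wells. The sequences upstream of their RefSeq starts (build GRCm38.p6, 5′ to 3′ on the gene's strand) are therefore shown. Capitals mark GC boxes, which read GGGCGG, or CCGCCC on the other strand, letters known to be bound by SP1 family factors. The window is 250 bases before the start: chr6:125494761-125495010 on the minus strand for Cd9, chr10:128909095-128909344 on the plus strand for Cd63, and chr7:143052500-143052749 on the plus strand for Cd81. For Cd9 the last 31 bases are left out, since GENCODE places them in the first exon, and 219 bases are shown. For Cd81 GENCODE places the last 11 bases in the first exon; they are shown, and the last marked GC box runs into them. The Cd63 window lies inside the GENCODE gene, which begins farther upstream.
Cd9: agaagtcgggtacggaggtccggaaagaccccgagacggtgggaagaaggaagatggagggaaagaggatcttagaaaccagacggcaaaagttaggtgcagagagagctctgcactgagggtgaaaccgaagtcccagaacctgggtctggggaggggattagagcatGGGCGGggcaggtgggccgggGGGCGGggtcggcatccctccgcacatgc
Cd63: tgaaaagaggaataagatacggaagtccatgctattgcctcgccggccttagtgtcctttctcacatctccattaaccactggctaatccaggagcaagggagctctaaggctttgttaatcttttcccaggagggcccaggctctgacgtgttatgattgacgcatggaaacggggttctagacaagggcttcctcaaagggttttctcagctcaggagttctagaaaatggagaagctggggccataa
Cd81: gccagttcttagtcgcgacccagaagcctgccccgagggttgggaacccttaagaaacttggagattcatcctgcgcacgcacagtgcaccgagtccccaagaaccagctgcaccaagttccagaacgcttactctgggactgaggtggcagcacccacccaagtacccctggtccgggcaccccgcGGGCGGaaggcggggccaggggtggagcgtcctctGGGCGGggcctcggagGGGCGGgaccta
The Cd9 window held 2 GC boxes, the Cd81 window 3 and the Cd63 window none, and 32.7% of 32851 promoter windows of this length held at least 1. G and C made up 61.6% of the Cd9 window, 65.6% of the Cd81 window and 48.8% of the Cd63 window, beside a median of 52.4% over all windows. None of the 3 windows held the TATA box letters TATAAA, which 12.4% of all windows did on either strand, or the letters CCAAT, which 33.8% did, so no motif overlaps the marked boxes. RefSeq gave windows for 7 of the 10 genes; Itga6, Cdh1 and Pecam1 had no entry. Of the other 4 windows, Itga5 held 2 GC boxes, Itgb1 and Epcam 1 each, and Itgav none.

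Cd63 had the one difference past the threshold. The gene (ENSMUSG00000025351; chromosome 10, 128900989 to 128912822, plus strand) had 779, 977 and 705 CPM in the inhibited libraries of plates 1 to 3, 944, 1215 and 1032 CPM in the deleted ones, against 687, 889.96 and 758 CPM in control cells. On each plate the inhibited library was below the deleted one, though the group ranges overlapped because plate 2 was high in all groups. Cd63 averaged 820.7 ± 141 CPM in inhibited and 1064 ± 138 CPM in deleted cells (SD, n = 3 plates each). It fell by 0.38 ± 0.07 on the log2 scale in inhibited relative to deleted cells (adjusted p = 0.0497). This call lies at the edge of the threshold: the adjusted p was 0.470 without the plate block, 0.0623 with another size factor (RLE), 0.127 without the deepest 5% of wells, and 0.277, 0.442 and 0.0598 without plates 1, 2 and 3. With wells thinned to equal depth it was 0.00452.

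Deleted libraries were all above the control libraries for Cd63, with a log2 difference of 0.45 ± 0.07 and an adjusted p of 0.0567, which missed the threshold. Thinning the wells to equal depth gave a difference of 0.31 ± 0.07 and an adjusted p of 0.0161, which passed. For inhibited against control cells it was 0.07 ± 0.06 (adjusted p = 0.813), and it was -0.02 and -0.01 in the fits on thinned wells and without the deepest 5% of wells.

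Cd63 shares sequence with Cd63-ps (ENSMUSG00000085939; chromosome 18, 50134726 to 50135600, plus strand), a processed copy whose transcript matches Cd63 at 98.5% over 812 of 1109 bases. The sources used here do not say how reads that fit both were counted, so the split between them is uncertain. Cd63-ps had 350.5, 397 and 334 CPM in inhibited cells, 424, 488 and 503 CPM in deleted cells, against 316, 364 and 363 CPM in control cells. It took 28.7 to 32.8% of the summed counts of both in all 9 libraries. Its own log2 difference was -0.39 ± 0.07 for inhibited against deleted cells (adjusted p = 0.0716) and 0.44 ± 0.07 for deleted against control cells (adjusted p = 0.0997). Adding the counts of both, an alternative chosen after seeing the data, gave -0.38 ± 0.06 for inhibited against deleted cells (adjusted p = 0.0443) and 0.45 ± 0.06 for deleted against control cells (adjusted p = 0.0521).

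**Figure D3:**
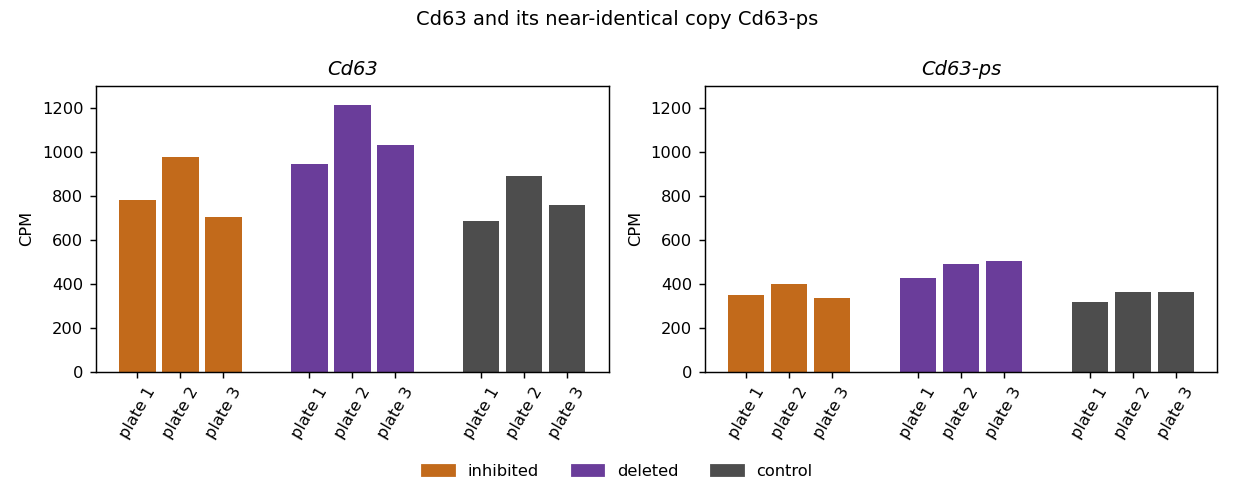
CPM (vertical axes, starting at 0) of Cd63 and of Cd63-ps in the inhibited, deleted and control libraries of plates 1 to 3. Both are highest in the deleted libraries on every plate, and the copy makes up 28.7 to 32.8% of their sum throughout.

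Cd9 (ENSMUSG00000030342; chromosome 6, 125460266 to 125494791, minus strand), a tetraspanin that associates with beta 1 integrins, had 386, 338 and 509 CPM in inhibited cells, 399, 413 and 622 CPM in deleted cells, against 324, 329.6 and 494 CPM in control cells. Plate 3 was the highest in every group, and within each plate the order of these summed levels was deleted above inhibited above control. The plate means spanned a ratio of 1.503. The log2 difference was -0.21 ± 0.07 for inhibited against deleted cells (adjusted p = 0.212), 0.11 ± 0.07 for inhibited against control cells (adjusted p = 0.674) and 0.32 ± 0.07 for deleted against control cells (adjusted p = 0.179). None passed the threshold. A pseudogene, Cd9-ps, matches Cd9 at 90.7% over 664 bases and averaged 0.651 CPM.

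Cd81 (ENSMUSG00000037706; chromosome 7, 143052739 to 143067934, plus strand), known as a receptor component for several pathogens, had 976, 1093 and 1093 CPM in inhibited cells, 747, 1160.3 and 1245 CPM in deleted cells, against 749.7, 895 and 868 CPM in control cells. Inhibited libraries were all above the control libraries. The log2 difference for inhibited against control cells was 0.33 ± 0.10 (adjusted p = 0.365). Deleted cells were above control cells on plates 2 and 3 and level with them on plate 1 (log2 difference 0.30 ± 0.10, adjusted p = 0.323). Inhibited and deleted cells differed by 0.03 ± 0.10.

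Like the levels of Cd63 and Cd9, but not that of Cd81, the summed level of 12 trophectoderm markers was highest in the deleted library of each plate. It was 608 to 961 CPM in inhibited, 1064 to 1717 CPM in deleted and 813 to 947 CPM in control libraries, most of it from Krt18 and Krt8. Not every marker was highest in deleted cells: Tfap2c, a transcription factor gene, had 12.5 to 19.1 CPM in inhibited, 11.4 to 12.9 CPM in deleted and 9.47 to 11.1 CPM in control libraries. All 12 were measured; Elf5 was at 0 in 5 of the 9 libraries and at most 0.045 CPM, and Cdx2 lay between 2.22 and 6.09 CPM. Their part in the tetraspanin levels was not tested, nor was that of the mitochondrial share, which was also highest in deleted libraries on each plate.

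Cdh1 and Epcam, the 2 genes of cell-to-cell contact in the epithelial sense, showed no difference past the threshold in any comparison. Cdh1 (ENSMUSG00000000303; chromosome 8, 106603351 to 106670246, plus strand) had 135, 143 and 162 CPM in inhibited cells, 189, 167.5 and 156 CPM in deleted cells, against 164, 156 and 195 CPM in control cells. Inhibited cells were below control cells on each plate, but the ranges overlapped. The log2 difference was -0.22 ± 0.11 for inhibited against deleted cells (adjusted p = 0.385), -0.23 ± 0.11 for inhibited against control cells (adjusted p = 0.579) and -0.00 ± 0.11 for deleted against control cells (adjusted p = 0.9995).

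Epcam (ENSMUSG00000045394; chromosome 17, 87635979 to 87651129, plus strand) had 254, 283 and 247 CPM in inhibited cells, 251, 285 and 233 CPM in deleted cells, against 243, 300.3 and 273 CPM in control cells. Plate 2 was the highest in each group, and all 3 groups overlapped. Its log2 difference was 0.03 ± 0.07 for inhibited against deleted cells, -0.06 ± 0.07 for inhibited against control cells and -0.09 ± 0.07 for deleted against control cells, with adjusted p-values of 0.907, 0.881 and 0.744 in that order.

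Pecam1 had the widest differences on the log2 scale of the 10 genes and the fewest UMIs. The gene (ENSMUSG00000020717; chromosome 11, 106654217 to 106750628, minus strand) had 2.07, 2.99 and 2.48 CPM in inhibited cells, 7.37, 8.002 and 7.58 CPM in deleted cells, against 4.79, 4.73 and 4.13 CPM in control cells. No library of any group overlapped with another group. The log2 difference was -1.61 ± 0.29 for inhibited against deleted cells (adjusted p = 0.0595), -0.87 ± 0.29 for inhibited against control cells (adjusted p = 0.404) and 0.75 ± 0.28 for deleted against control cells (adjusted p = 0.397). None passed the threshold over all genes. For comparison, 11.8, 11.3 and 11% of all genes had groups that did not overlap in these 3 comparisons, and 3, 4 and 2 of the 10 adhesion genes did.

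Few wells carried Pecam1. A UMI was found in 76 of 1590 inhibited, 95 of 1310 deleted and 114 of 1513 control wells, with 258, 820 and 504 UMIs in all. The single highest well held 23.1 to 32.9% of the UMIs of an inhibited library, 23.7 to 32.0% of a deleted library and 13.6 to 30.9% of a control library. In every library the top 5% of wells held at least 90.6% of them. Without the deepest 5% of wells the log2 difference was -1.35 for inhibited against deleted cells (adjusted p = 0.166) and 0.35 for deleted against control cells (adjusted p = 0.831). Of the 10 endothelial and blood markers, a list that includes Pecam1, several were near 0: Emcn was detected in 1 of the 9 libraries, at 0.0261 CPM, Hbb-bt in 1, at 0.0258 CPM, and Cdh5 and Ptprc reached at most 0.707 and 0.443 CPM. Others reached more in their highest library, at 3.10 CPM for Cd34, 2.40 for Tal1, 1.99 for Gata1 and 1.92 for Kdr. Pecam1 itself had 2.07 to 8.002 CPM over all libraries. Tek, which encodes an endothelial receptor kinase, had 0.913 to 0.984 CPM in inhibited, 1.93 to 2.02 CPM in deleted and 1.15 to 7.36 CPM in control libraries. The sum of the list, Pecam1 included, was 5.24 to 6.96 CPM in inhibited, 11.9 to 16.9 CPM in deleted and 8.03 to 15.4 CPM in control libraries. Pecam1 made up much of it, for example 4.79 of 8.03 CPM in the control library of plate 1. The sum is therefore no separate reading of Pecam1. The part of endothelial or blood cells in the Pecam1 levels was not tested.

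The share of wells with at least 1 UMI was compared after each well was thinned at random to 5869 UMIs, a depth that 3971 of the 4413 wells reached. The shallower wells left out were 176 inhibited, 163 deleted and 103 control wells. At this depth only Cd81 was found in more than 91% of the wells of every library. It was found in 93.3 to 95.5% of inhibited, 91.7 to 96.4% of deleted and 92.7 to 94.4% of control wells, by library. Cd63 was found in 84.7 to 86.0% of inhibited, 86.6 to 88.6% of deleted and 87.0 to 89.1% of control wells. The Cd63 share of inhibited wells was below both other groups on each plate, differing by -2.40 ± 1.398 percentage points from deleted and by -2.61 ± 0.93 points from control wells (SD, n = 3 plates). Deleted and control wells differed in this share by -0.21 ± 0.81 points. Whether a share of this height can register a higher level was not tested. The mean in the same thinned wells was 4.80, 7.12 and 5.59 UMIs of Cd63 per well in deleted cells of plates 1 to 3, against 4.33, 5.202 and 4.33 UMIs in control cells. It was higher in deleted cells on each plate. Cd9 was found in 68.9 to 74.9% of inhibited, 64.7 to 76.9% of deleted and 64.9 to 78.5% of control wells, and the groups overlapped.

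Itgb1 was found in 63.3 to 65.5% of inhibited, 61.7 to 77.4% of deleted and 66.7 to 72.1% of control wells, and Cdh1 in 39.6 to 46.9%, 40.8 to 51.3% and 43.9 to 53.5%. Against control, the inhibited share was lower on each plate, with a mean difference of -5.75 ± 2.08 points for Itgb1 and -6.026 ± 1.53 points for Cdh1. The alpha chains were scarcer, Itga6 being found in 10.96 to 15.9% of inhibited, 15.4 to 19.0% of deleted and 13.3 to 18.6% of control wells. For Itgav the shares were 4.18 to 8.53% in inhibited, 6.02 to 11.8% in deleted and 9.499 to 10.3% in control wells. Pecam1 was found in 0.996 to 1.66% of inhibited, 1.81 to 3.31% of deleted and 1.92 to 3.28% of control wells, while Ptprc, a blood marker, was found in at most 0.267% of the wells of any library.

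Of the 10 adhesion genes, 7 had a lower share in inhibited than in control wells on every plate, and Cd81 a higher one. That direction is common: 34.4% of the 7577 genes averaging 10 CPM or more were also lower on every plate, and 5.75% higher. For inhibited against deleted wells 5 adhesion genes were lower on every plate and 0 higher, beside 21.1% and 12.8% of those genes. For deleted against control wells 0 were lower and 0 higher on every plate, beside 25.6% and 8.79%. Itga5 and Pecam1, which average under 10 CPM, are among the 7 and the 5 but outside the 7577 genes. An exact two-sided permutation of signs over 3 plates cannot go below p = 0.25, the value reached when all 3 plates point one way, so none of these differences in share can pass 0.05. Before thinning the shares were higher, for example 81.95 to 85.1% of inhibited, 79.9 to 92.4% of deleted and 86.4 to 89.8% of control wells for Itgb1.

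**Figure D4:**
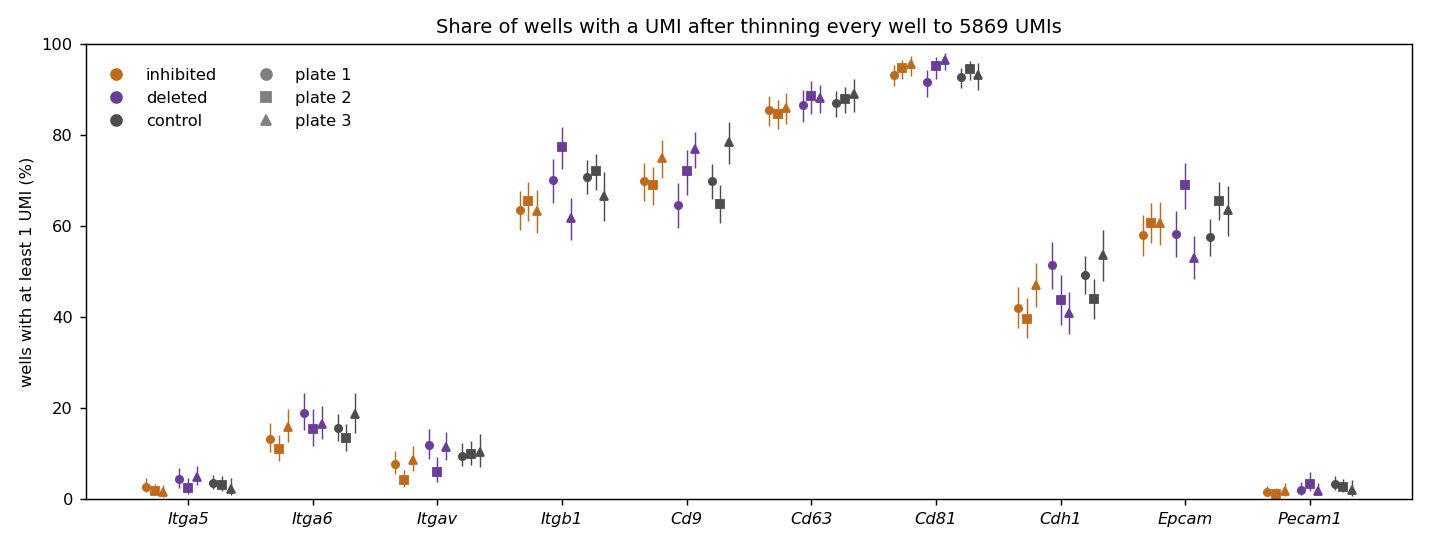
Share of wells with at least 1 UMI (vertical axis, percent) for each adhesion gene after thinning to 5869 UMIs, by group and plate, with 95% exact binomial intervals that cover counting error only. Cd81 lies above 91% in all 9 libraries, and Itga5 and Pecam1 lie below 5%.

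Across single wells the tetraspanins varied together more than the integrin chains did. Correlations were computed on log2(1 + UMIs) of the thinned wells within each of the 9 libraries and averaged; the points share library and depth, and they are given as a description over 3971 wells. Cd9 and Cd81 had a mean Pearson correlation of 0.26, Cd9 and Cd63 of 0.20, and Cd63 and Cd81 of 0.16. Itgb1 reached 0.13 with both Cd9 and Cd81. With its own alpha chains Itgb1 was at 0.01 for Itga5, 0.02 for Itga6 and 0.04 for Itgav, and Cdh1 with Epcam was at 0.03. The alpha chains had 0.0355 to 0.234 UMIs per thinned well on average, where a weak correlation says little.

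**Figure D5:**
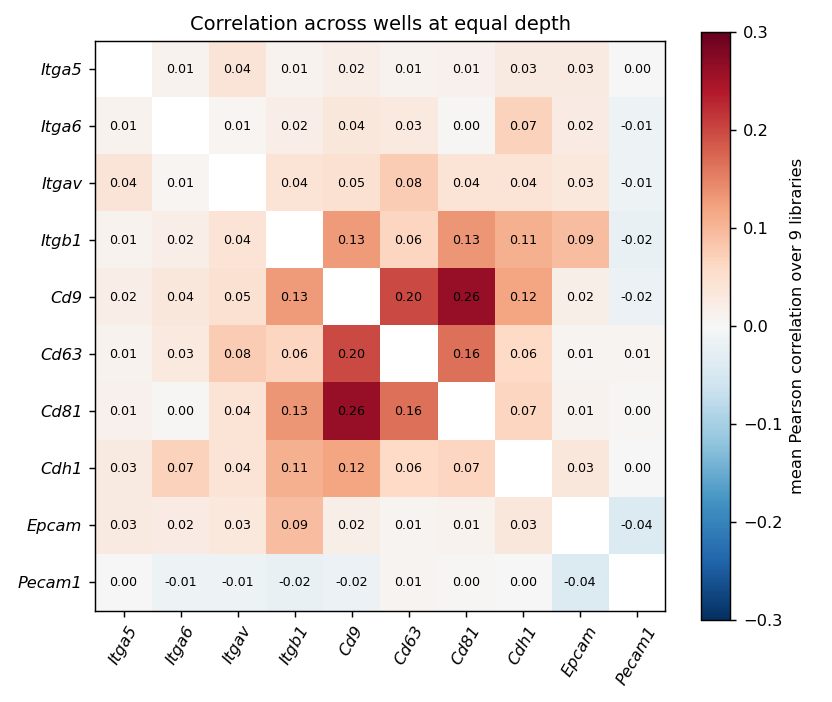
Mean Pearson correlation across wells at equal depth for each pair of the 10 adhesion genes, averaged over 9 libraries (colour scale from -0.3 to 0.3). The block of Cd9, Cd63 and Cd81 holds the highest values, 0.16 to 0.26, and the rows of Itga5 and Pecam1 stay near 0.

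Among all genes of at least 10 CPM, those most like Cd9 across wells were Krt18, at 0.31, and Krt8, at 0.28, which encode the paired keratins of simple epithelia. The same pair led for Cdh1, with 0.20 and 0.18, and for Itgav, with Krt8 at 0.15 and Krt18 at 0.14. For comparison, 95% of genes had a correlation under 0.072 with Cd9, 0.049 with Cdh1 and 0.041 with Itgav. Cd63 was most like its copy Cd63-ps, at 0.67, and then Fabp3, a fatty acid binding protein, at 0.30. Cd81 was most like Clic1, a chloride channel protein, at 0.26, and Cd9. Krt18 was at 0.24 with Cd63 and at 0.25 with Cd81, above the 0.16 of Cd63 with Cd81. Itgb1 was most like Lgals1, which encodes galectin-1, at 0.18, and Anxa2, which encodes an annexin, at 0.17. The leading genes for the others stayed under 0.1: Itgb1 and Itm2b for Epcam, Anxa1 and Slc2a1 for Itga6, Noc2l and Spred2 for Itga5, and Ep400 and Syce1 for Pecam1.

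Spread between wells was widest for Cd63. The Fano factor, the variance over the mean of thinned UMIs, averaged 6.06 for Cd63, 4.19 for Cd81, 3.25 for Cd9 and 3.21 for Itgb1 over the 9 libraries, beside a median of 2.14 over genes of at least 10 CPM. It was 2.36 for Cdh1 and 2.32 for Epcam. Wells at equal depth held a median of 5 UMIs of Cd81 and 3 of Cd63, and up to 55 and 54. This factor rises with the level of a gene, so the values are not a ranking at equal mean.

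The genes that work with these molecules were examined in 9 lists of 137 genes, of which 119 passed the filter on low counts. None of the 119 passed the threshold in any of the 3 comparisons. Over all genes, 8562 of 17119 had a log2 difference above 0 for deleted against control cells, 8539 for inhibited against control cells and 8497 for inhibited against deleted cells. Of the 7577 genes averaging 10 CPM or more, 3839, 4300 and 4174 were above 0 in the same order.

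Integrin adaptors, which link the cytoplasmic tails to actin, had values above 0 for 14 of 16 tested genes in deleted against control cells (median 0.21) and below 0 for 12 of 16 in inhibited against deleted cells (median -0.13). For inhibited against control cells, 12 of 16 adaptors were above 0 (median 0.15). Zyx, which encodes the focal adhesion protein zyxin, had 59.0 ± 12.3 CPM in deleted cells, against 40.4 ± 5.34 CPM in control cells (SD over 3 plates; log2 difference 0.54 ± 0.12, adjusted p = 0.196). Fermt2, or kindlin-2, an integrin activator, had 283 ± 29.7 CPM in inhibited and 228 ± 30.3 CPM in control cells (0.31 ± 0.12, adjusted p = 0.493). Integrin ligands and matrix proteins were below 0 for 11 of 12 tested genes in inhibited against deleted cells (median -0.15). Against control, 10 of 12 were below 0 in inhibited cells (median -0.14) and 9 of 12 above 0 in deleted cells (median 0.35). The collagen IV chain gene Col4a1 had 25.8 ± 3.34 CPM in inhibited and 51.7 ± 9.68 CPM in deleted cells (-1.04 ± 0.30, adjusted p = 0.169). Spp1, which encodes osteopontin, a ligand of alpha V integrins, had 269 ± 22.7 CPM in inhibited and 331 ± 35.5 CPM in control cells (-0.30 ± 0.08, adjusted p = 0.365). Of the other integrin subunits, 14 of 22 were tested and the highest was Itga3, a laminin receptor chain, at 74.0 ± 8.53 CPM in inhibited cells, 69.0 ± 13.8 CPM in deleted cells and 63.3 ± 10.3 CPM in control cells.

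Other tetraspanins did not share one direction, with 9 of 19 tested genes above 0 for deleted against control cells (median -0.00). Cd151, which binds laminin-binding integrins, had 47.5 ± 9.21 CPM in inhibited cells, 56.4 ± 6.72 CPM in deleted cells and 47.0 ± 7.93 CPM in control cells. Tspan3 had 87.5 ± 7.15 CPM in inhibited and 69.6 ± 7.48 CPM in control cells (0.33 ± 0.10, adjusted p = 0.373). Of the 12 tetraspanin partners, Sdcbp, which encodes syntenin-1, a cytoplasmic binder of CD63, had the smallest p of the list in both comparisons with control. It averaged 60.4 ± 6.20 CPM in inhibited cells, 57.1 ± 10.9 CPM in deleted cells and 38.8 ± 9.09 CPM in control cells. Its log2 difference was 0.66 ± 0.12 for inhibited against control cells (adjusted p = 0.230) and 0.56 ± 0.12 for deleted against control cells (adjusted p = 0.193). Timp1, a metalloprotease inhibitor that binds CD63, had 38.1 ± 8.93 CPM in inhibited cells, 51.6 ± 8.35 CPM in deleted cells and 37.6 ± 7.19 CPM in control cells.

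Tight junction genes and EpCAM partners were above 0 for 14 of 14 tested genes in deleted against control cells (median 0.27) and below 0 for 12 of 14 in inhibited against deleted cells (median -0.28), with none past the threshold. For inhibited against control cells, 7 of 14 were above 0 (median -0.01). Cldn6, a claudin of early embryonic epithelia, had 73.1 ± 18.9 CPM in deleted cells, against 50.8 ± 10.5 CPM in control cells (0.51 ± 0.17, adjusted p = 0.346). Spint1, an inhibitor of membrane serine proteases, had 35.1 ± 2.90 CPM in inhibited and 49.2 ± 7.04 CPM in deleted cells (-0.48 ± 0.13, adjusted p = 0.146). Among cadherin partners, 12 of 14 were below 0 for inhibited against deleted cells (median -0.17). Against control, 11 of 14 were above 0 in deleted cells (median 0.17) and 7 of 14 in inhibited cells (median -0.05). Dsp, which encodes desmoplakin of the desmosome, had 21.4 ± 3.72 CPM in inhibited cells, 37.7 ± 5.03 CPM in deleted cells and 23.4 ± 4.53 CPM in control cells. It differed by -0.84 ± 0.18 for inhibited against deleted cells (adjusted p = 0.0953). Ctnna1, or alpha-catenin, the link of E-cadherin to actin, was the highest of the list, at 543 ± 44.9 CPM in inhibited cells, 564 ± 25.8 CPM in deleted cells and 505 ± 41.4 CPM in control cells. The other cadherins were scarce, and 8 of 8 tested genes were above 0 for inhibited against control cells (median 0.47). For deleted against control cells 7 of 8 were above 0 (median 0.36), and for inhibited against deleted cells 6 of 8 (median 0.21). Dsg2, a desmosomal cadherin and the highest of them, had 26.4 ± 8.97 CPM in inhibited and 20.1 ± 5.51 CPM in control cells (0.38 ± 0.19, adjusted p = 0.5997). The list of other immunoglobulin family genes, which also holds the tetraspanin gene Cd151 and the sialomucin gene Cd34, had 7 of 11 tested genes below 0 for inhibited against deleted cells (median -0.36), and Bsg, which encodes basigin, was the highest, with 409 ± 38.2 CPM in inhibited cells, 358 ± 76.5 CPM in deleted cells and 339 ± 42.4 CPM in control cells.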

How the data were processed

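The deposited tables hold UMI counts for each well and gene, to which the authors applied no normalisation. The tools named by the submitters' processing notes are featureCounts, Subread 1.4.6-p1 and STAR 2.5.2b, with build mm10. Row sums equalled those of the deposited plate reports in 4640 of 4640 wells, and each well's group was read from those reports. Spike-in rows (0.646 to 0.752% of UMIs) entered neither library sizes nor tests. Of 4610 typed wells, 4413 with at least 1000 genes and under 20% mitochondrial UMIs were kept; no doublet caller was run, and the 442 kept wells below the thinning depth entered no thinned value.

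Counts were summed per plate and group and tested with edgeR 4.0.16 (R 4.3.3; TMM, filterByExpr, quasi-likelihood F test, plate as block, Benjamini-Hochberg adjustment, threshold 0.05). Every adjusted p comes from this test unless another tool is named. All 3 groups lie on every plate; deviations from group means correlated at 0.301 to 0.48 within plates (9 pairs) and at -0.304 to -0.0403 between plates (18 pairs). DESeq2 1.42.0 was an alternative. The scripts were checked on simulated data. Near-identical copies were searched with BLAST 2.17.0 among GENCODE M21 transcripts (90% identity, 200 bases or more), and GENCODE M21 (GRCm38) gave coordinates, counted from 1, and names for 28641 of the 29267 identifiers. Intervals and thinning cover counting error only.

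The members and lists were chosen with earlier results of these data known. From each list of partner genes the rule named the 2 with the smallest p of at least 10 CPM and the 3 of highest level, of which some are given; Cd151 stands in 2 lists, and Cyr61, an older symbol of the listed Ccn1, had no row of its own.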

Additional observations from a re-analysis of the deposited data

Results flagged for a closer look

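Cd63 is listed because the effects of inhibition and of deletion against the same control libraries differed: inhibition minus deletion was -0.378 on the log2 scale, with an adjusted p of 0.0497 in edgeR's quasi-likelihood test, and the inhibited library was lower on 3 of 3 plates. Pecam1 is listed because, in CPM of summed wells, inhibited libraries were below and deleted libraries above control on all 3 plates. Inhibition minus deletion was -1.61 on the log2 scale, and its adjusted p of 0.0595 in the same test did not pass. Wells thinned to equal depth did not keep this order on plates 1 and 3. The mean there was 0.0143, 0.0239 and 0.0355 UMIs of Pecam1 per well in inhibited cells of plates 1 to 3. It was 0.0321, 0.108 and 0.0385 in deleted cells, against 0.0466, 0.0405 and 0.0288 in control cells. The share of deleted wells differed from control by -1.41, 0.616 and -0.109 points.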

How the results depend on the processing

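The count of all genes called depended most on the tool. DESeq2 called 734 genes for inhibited against deleted, 277 for inhibited against control and 334 for deleted against control cells; edgeR with no filter on low counts called 383, 108 and 179, and with wells thinned to equal depth 179, 90 and 61. Without the plate as a replicate block it called 3, 0 and 0 (1517, 851 and 1035 at an unadjusted p under 0.05), and leaving out 1 plate gave 0 to 73, 0 to 0 and 1 to 5. Without the deepest 5% of wells 31 were called for inhibited against deleted cells, and with all wells 10 for deleted against control cells.

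The Cd63 call for inhibited against deleted cells was lost, in the same direction, with RLE size factors (-0.37), without the replicate block (-0.37), without the deepest 5% of wells (-0.28; -0.28 with Cd63-ps added) and without each plate in turn (-0.44 to -0.29). For deleted against control cells, Cd63 passed with DESeq2 (0.45), with no filter (0.46) and with thinned wells (0.31; 0.31 with Cd63-ps added), and Cd9 with DESeq2 (0.32) and no filter (0.33), and Cd81 with no filter (0.31). For inhibited against control cells, Itga6 (-0.44) and Cd81 (0.34) passed with DESeq2, and Cd81 (0.34) with no filter. For inhibited against deleted cells, DESeq2 also called Itga6 (-0.55), Itgav (-0.63) and Pecam1 (-1.61), and the fit with no filter Itga6 (-0.56) and Pecam1 (-1.62). Cd63 was the only adhesion gene called in the main fit, so no other call could be lost. The causes were not tested.

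Signs turned for values that passed no test, not all of them near 0 in the main fit (-0.22 for Itga5 in inhibited against control cells). For inhibited against control cells these were Cd63 with thinned wells (-0.0174; -0.0359 with Cd63-ps added) and without the deepest 5% of wells (-0.00914; -0.015 with Cd63-ps added) and Epcam with thinned wells (0.0767), and for deleted against control cells Cdh1 with no filter (0.0069). Without 1 plate, the log2 difference for inhibited against deleted cells spanned -0.12 to 0.0428 for Itgb1 and -0.15 to 0.15 for Cd81. For inhibited against control cells it spanned -0.40 to 0.0118 for Itga5, and for deleted against control cells -0.10 to 0.23 for Itgav, -0.0814 to 0.0123 for Itgb1 and -0.10 to 0.15 for Cdh1.

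Differences in the share of wells, in percentage points, turned sign as follows. At 20000 UMIs per well, deleted minus control was -0.403 for Itga5, 0.106 for Itgav, -0.962 for Cd9, -0.119 for Cd81 and 0.258 for Pecam1, inhibited minus control was -1.05 for Cd9 and -0.087 for Cd81, and inhibited minus deleted was -0.0861 for Cd9. Without the deepest 5% of wells, deleted minus control was 0.308 for Itgb1 and -0.137 for Cd9, inhibited minus control was -0.214 for Cd9, and inhibited minus deleted was -0.0769 for Cd9, -0.346 for Cd81 and 0.109 for Epcam. Leaving out 1 plate, deleted minus control spanned -1.36 to 1.67 for Itgav, -2.87 to 2.29 for Itgb1, -3.45 to 2.70 for Cd9, -0.655 to 0.139 for Cd63, -0.133 to 1.94 for Cd81, -6.48 to 0.929 for Cdh1, -4.81 to 2.12 for Epcam and -0.759 to 0.253 for Pecam1. Inhibited minus control spanned -1.90 to 1.92 for Cd9. Inhibited minus deleted spanned -2.53 to 1.55 for Cd9, -0.717 to 0.497 for Cd81, -6.66 to 1.03 for Cdh1 and -4.27 to 3.64 for Epcam. Among 309 log2 values under all settings, 274 kept their direction and their side of the threshold. Of 150 differences in share, 122 kept their direction.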
